A study of Mus musculus with 4 samples.

Results

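The 54 genes described here are transcription factors, with some partners and modifiers of chromatin, that are known for regional identity in the forebrain. They were chosen by gene symbol, and all 54 were among the 32564 genes to which the transcripts of the index matched. RNA came from adult mouse neural stem cells in 4 libraries of 1 group. By their labels the cells were activated, carried Prom1, EGFR and GFAP, and were sorted by flow cytometry from untreated gfap:GFP mice, in which a Gfap promoter drives GFP, aged 3 months on a mixed CD1 and C57BL/6 background. The design text of the series speaks of quiescent cells and of 3 days after intraventricular aCSF or antagomers of miR204, which no sample label names. Groups follow the labels, which leaves nothing to compare between groups. If the design text applied, the spread between libraries could also hold a difference between treatments. Separate animals are not named for the libraries, so each SD and p-value measures the spread between these libraries, which may be technical.

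Adult neural stem cells line the lateral ventricles and make mainly interneurons of the olfactory bulb. They keep the homeobox and zinc finger factors that patterned the embryonic forebrain. Emx and Pax6 genes mark the dorsal wall (the pallium), Nkx genes the ventral tip, and Zic genes the medial or septal wall. Gsx and Dlx genes mark the subpallium and are listed here as lateral, after the wall on its striatal side. Dlx genes are not confined to that wall. Stem cells of different walls are known to give different interneuron types. Each gene's level is given as TPM, an estimated count divided by transcript length and scaled to the same total in each library, so that genes can be set beside each other.

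Depth was 16978938 to 23727664 estimated counts per library. All 10 stem and glial genes used as a check of the sort were above 1 TPM, with Gfap at 149 ± 54.4, Egfr at 89.7 ± 23.1 and Prom1 at 23.1 ± 7.01 TPM (SD, n = 4). Markers of other cell types were present too. All 6 astrocyte genes were above 1 TPM and summed to 3185 to 4348 TPM per library. Aldoc, at 2236 ± 306 TPM, and Gja1, at 1003 ± 182 TPM, were the highest of them. All 8 oligodendrocyte genes were above 1 TPM and summed to 2515 to 4357 TPM per library, and all 8 genes of striatal neurons summed to 809 to 954 TPM. The 7 microglial genes summed to 99.8 to 365 TPM, the 6 ependymal genes to 598 to 1204 TPM, and the 4 erythroid genes to 53.3 to 1921 TPM. Library 1 had the lowest sums of the oligodendrocyte, microglial, ependymal and erythroid lists, and the highest sums of the neuroblast list (1890 TPM) and the mature neuron list (593 TPM). In bulk RNA, fewer cells of a type and less RNA per cell cannot be told apart, and the part of these other cell types in the levels of the 54 factors was not tested except where a value is given.

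Of the 54 factors, 41 were above 1 TPM in limma's test of log2(TPM + 1) over 19914 genes with Benjamini-Hochberg adjustment, 4 were below 1 TPM and 9 passed neither way. Over all genes tested, 62.8% were above 1 TPM and 23.2% below it. The members' median was 15.4 TPM, beside 8.34 TPM over all genes tested. On protein-coding transcripts alone, 39 members were above 1 TPM and 7 below it, against 71.0% and 16.6% of all genes tested that way. The 4 members below 1 TPM were Zic1, Zic2, Rax and Barhl2, and the 9 that passed in neither direction were Nkx2-1, Eomes, Emx1, Tbr1, Tshz2, Sp8, Gsx1, Ebf1 and Lhx8. The levels spanned from 299 ± 85.4 TPM for Nfix to a single estimated count for Barhl2. Mean levels were at least 100 TPM for 6 members, 10 to 100 TPM for 26, 1 to 10 TPM for 17 and under 1 TPM for 5. When the 54 were put in order of mean TPM, the ranges of 52 of the 53 neighbouring pairs overlapped, all but Nfib and Klf15. Ranges alone therefore do not order most neighbours. Within libraries some kept their order: Dlx2 exceeded Lhx2, and Lhx2 exceeded Dlx1, in 4 of 4. Others did not, such as Gsx2, which exceeded Zeb1 in 2 of 4.

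**Figure D1:**
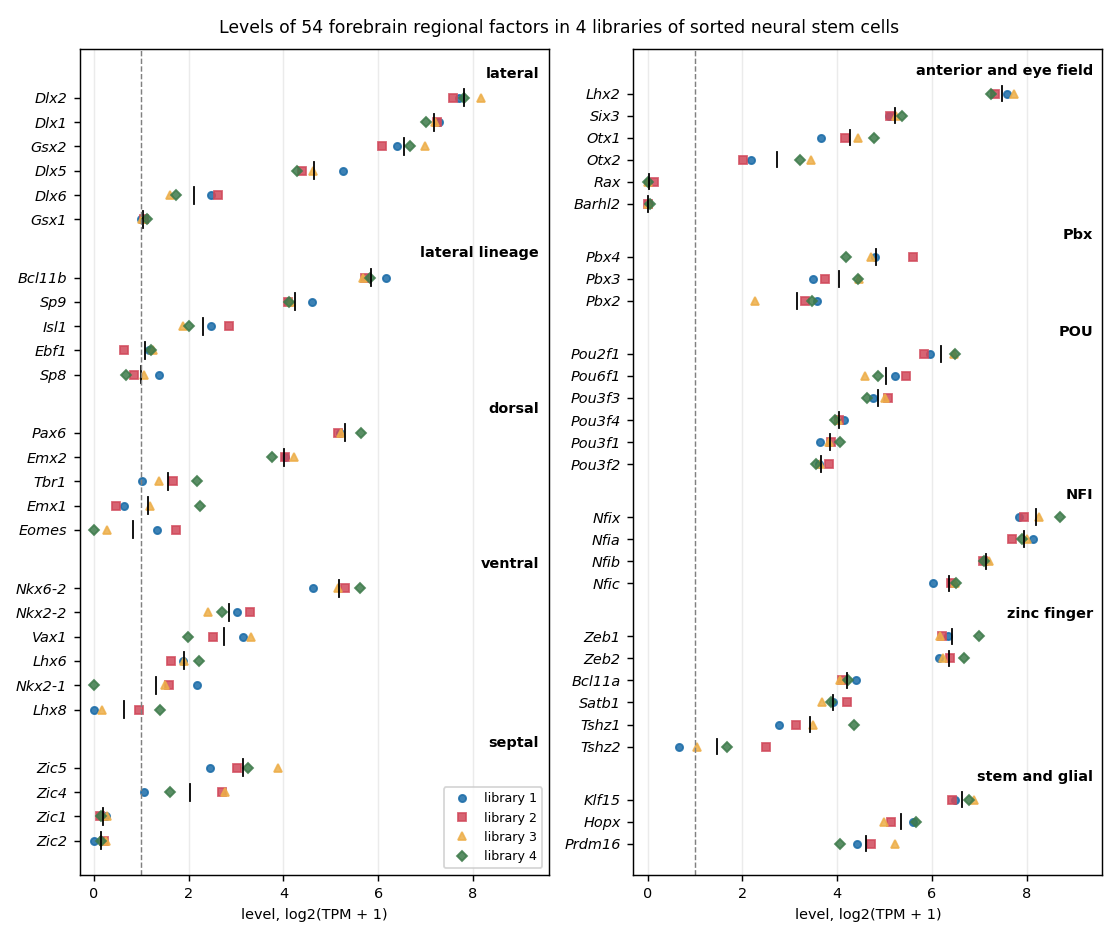
Level of each of the 54 factors as log2(TPM + 1), by role; points are the 4 libraries, the short vertical line is their mean and the dashed line marks 1 TPM. Among the regional lists on the left, the lateral factors Dlx2, Dlx1 and Gsx2 stand highest, and Zic1 and Zic2 lie left of the dashed line in all 4 libraries.

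The lateral and the dorsal list each hold a pair of paralogs of which one member was high and the other near 1 TPM: Gsx2 with Gsx1, and Emx2 with Emx1. Their start regions are shown because these are the most uneven pairs of paralogs of the lateral and dorsal lists. The 4 sequences, from RefSeq on the build GRCm38.p6, each run from 250 bases before to 50 bases after a RefSeq gene start, 5′ to 3′ on the gene's strand. These starts are not all those of GENCODE M21, the annotation used for the levels. There Emx2 starts at 59458372 and Emx1 at 85187438, so both Emx windows lie wholly downstream of the GENCODE start. The Gsx windows begin before the GENCODE starts, 75075601 for Gsx2 and 147188696 for Gsx1, so the Emx and Gsx windows are not alike. Gsx2 is at chr5:75075351-75075650, Gsx1 at chr5:147188446-147188745, Emx2 at chr19:59458440-59458739 and Emx1 at chr6:85187681-85187980, all on the plus strand. Capitals mark the motifs searched on both strands: TATAAA (the TATA box), TAATTA (a core of homeodomain sites), CCAAT and GGGCGG (the GC box, which reads CCGCCC on the other strand).
Gsx2: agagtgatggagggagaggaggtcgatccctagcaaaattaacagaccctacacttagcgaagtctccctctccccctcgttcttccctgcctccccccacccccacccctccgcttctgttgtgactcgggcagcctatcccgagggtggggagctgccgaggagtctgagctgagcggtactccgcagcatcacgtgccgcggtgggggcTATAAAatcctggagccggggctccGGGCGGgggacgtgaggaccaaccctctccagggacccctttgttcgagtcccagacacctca
Gsx1: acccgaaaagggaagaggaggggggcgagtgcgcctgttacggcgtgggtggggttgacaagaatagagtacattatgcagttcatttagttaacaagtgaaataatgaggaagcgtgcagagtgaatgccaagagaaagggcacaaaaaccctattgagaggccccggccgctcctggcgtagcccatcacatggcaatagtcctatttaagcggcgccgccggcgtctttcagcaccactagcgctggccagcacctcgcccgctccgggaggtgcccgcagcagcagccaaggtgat
Emx2: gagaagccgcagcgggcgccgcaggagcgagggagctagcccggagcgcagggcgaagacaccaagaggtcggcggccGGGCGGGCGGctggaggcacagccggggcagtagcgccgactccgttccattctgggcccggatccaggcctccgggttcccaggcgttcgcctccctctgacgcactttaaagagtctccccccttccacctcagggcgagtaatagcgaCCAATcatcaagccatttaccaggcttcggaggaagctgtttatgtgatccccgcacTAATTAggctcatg
Emx1: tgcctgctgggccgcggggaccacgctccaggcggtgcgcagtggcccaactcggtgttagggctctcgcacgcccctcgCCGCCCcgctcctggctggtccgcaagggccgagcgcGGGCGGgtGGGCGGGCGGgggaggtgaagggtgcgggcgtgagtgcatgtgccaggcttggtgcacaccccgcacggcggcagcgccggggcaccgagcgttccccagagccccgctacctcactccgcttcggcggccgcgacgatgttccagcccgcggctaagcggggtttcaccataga
The Gsx2 window held 1 TATAAA and 1 GGGCGG, and the Gsx1 window held none of the 4 motifs. The Emx2 window held TAATTA and CCAAT once each and GGGCGG 2 times in overlap, and the Emx1 window held the GC box 4 times on either strand, 2 of them in overlap. RefSeq windows were found for 44 of the 54 members, 67 windows in all. GGGCGG was in 47.8% of the members' windows, against 35.7% of all 32851 windows, and TATAAA in 8.96%, against 13.6%. CCAAT was in 47.8% of the members' windows, against 37.4% of all, and TAATTA in 8.96%, against 5.29%. The members' windows were richer in CpG, with a median of 16 CpG per 300 bases, against 7 in all windows. These are letter matches and describe the windows only.

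The lateral list was the highest of the regional lists. Of its 6 genes, 5 were above 1 TPM and Gsx1 passed in neither direction, and the list's median was 59.8 TPM. Dlx2, a homeobox factor that drives production of GABA neurons, had 208, 190, 289 and 224 TPM in libraries 1 to 4. Its neighbour Dlx1 had 156, 150, 147 and 128 TPM. Gsx2, the homeobox factor of lateral progenitors that acts ahead of the Dlx genes, had 83.7, 66.9, 126 and 101 TPM. Library 3 was highest for Dlx2 and for Gsx2, while Dlx1 was highest in library 1 and varied 1.22-fold between its extremes. The 3 genes were each above 1 TPM, with differences on the log2(TPM + 1) scale of 6.82 ± 0.11 for Dlx2, 6.19 ± 0.07 for Dlx1 and 5.54 ± 0.15 for Gsx2 (SE, n = 4), the adjusted p from limma being at most 2.1e-07.

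Dlx5 and Dlx6, the second Dlx cluster, stood lower. Dlx5 had 37.2, 20.05, 23.8 and 18.6 TPM in libraries 1 to 4. Dlx6 had 4.58, 5.17, 2.05 and 2.33 TPM. Both were above 1 TPM, and library 1 was highest for Dlx5, whereas libraries 1 and 2 were highest for Dlx6. On its most abundant transcript alone Dlx6 passed in neither direction (limma adjusted p = 0.053). The high Dlx5 value in library 1 stood beside the highest sum of the neuroblast markers, of which 5 of 7 were highest in library 1. Among these were Stmn2, at 41.4 TPM in library 1 and 14.7 to 17.8 TPM in the others, and Tubb3, at 141 and 82.1 to 86.0 TPM. Elavl4 was instead highest in library 3, at 56.9 TPM beside 55.7 TPM in library 1. Nrxn3 was highest in library 2, at 26.3 TPM beside 20.6 TPM in library 1. Most of the sum was Stmn1, at 1463 TPM in library 1 and 1183 to 1429 TPM in the others. The part of neuroblasts in the Dlx5 level was not tested. Gsx1, the paralog of Gsx2, had 0.991, 1.07, 1.02 and 1.16 TPM, which rested on 18 to 30 estimated counts per library. Its values were nearly level across the 4 libraries while those of Gsx2 were not.

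Both Dlx clusters are pairs of genes that face each other. On GRCm38, Dlx1 (chr2:71528113-71533981, plus strand) and Dlx2 (chr2:71543408-71546754, minus strand) leave 9426 bases between their ends. Dlx6 (chr6:6863334-6868568, plus strand) and Dlx5 (chr6:6877805-6882085, minus strand) leave 9236 bases. Within each library Dlx5 exceeded Dlx6, by a mean log2 ratio of 2.53 ± 0.54 (SD, n = 4), and Dlx2 exceeded Dlx5 by 3.18 ± 0.51. The Dlx2 to Dlx1 ratio depended on which transcripts were summed: it was 1.55-fold over all transcripts and 3.74-fold over coding transcripts, with Dlx2 higher in 4 of 4 libraries either way. An exact sign-flip test over 4 libraries cannot go below p = 0.125, the value that each pair with the same sign in every library has. No pair can therefore pass a threshold of 0.05, and ratios within pairs are given as descriptions.

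That dependence lay in the transcripts of Dlx1. Dlx1-206, a retained-intron form of 803 bases, had 47.8, 46.7, 49.0 and 49.1 TPM in libraries 1 to 4. Dlx1-203, another retained-intron form, had 34.1, 41.7, 42.6 and 33.2 TPM. The coding form Dlx1-201 had 69.2, 46.4, 40.2 and 36.2 TPM. Library 1 was highest for the coding form, and the short retained-intron form was nearly level. Over all Dlx1 coding transcripts the level was 58.3 TPM, 40.1% of the gene's mean. Exons of Dlx1-201 and Dlx1-203 overlap the opposite-strand gene Dlx1as over 335 bases, and Dlx1-206 does not overlap it. Dlx1as is not among the transcripts of the files and the labels do not say that the library kept strand, so reads from Dlx1as within that overlap cannot be told apart from Dlx1. Dlx2 was carried to 96.3% by its coding form Dlx2-201.

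The lateral lineage factors act in the neurons and neuroblasts that the lateral wall produces, and 3 of 5 were above 1 TPM. Bcl11b, a zinc finger factor of striatal projection neurons, had 70.3, 51.6, 49.99 and 56.0 TPM in libraries 1 to 4. Sp9, a zinc finger factor of olfactory bulb and striatal neurons, had 23.4, 16.0, 16.9 and 16.4 TPM. Both were highest in library 1, and the other 3 libraries lay close together. Striatal neuron markers summed to 954, 809, 863 and 915 TPM in libraries 1 to 4, with Ppp1r1b at 692 ± 52.7 TPM (SD, n = 4), and their part in the Bcl11b level was not tested. Isl1, a LIM homeobox factor of striatal and cholinergic neurons, had 4.57, 6.17, 2.68 and 3.03 TPM and was above 1 TPM over all transcripts (limma adjusted p = 0.0033). It passed in neither direction over its coding transcripts, at 1.64 TPM (limma adjusted p = 0.40), and the retained-intron form Isl1-203 held 58.3% of its TPM.

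Sp8 and Ebf1 did not differ from 1 TPM. Sp8, the paralog of Sp9 known from interneurons of the olfactory bulb, had 1.59, 0.796, 1.07 and 0.609 TPM, library 1 being highest. Ebf1, a factor of striatal projection neurons, had 1.25, 0.563, 1.38 and 1.32 TPM, library 2 being lowest. Sp9 exceeded Sp8 by a log2 ratio of 3.26 ± 0.14, and this ratio varied less than either gene: it was 3.24, 3.24, 3.11 and 3.44 in libraries 1 to 4. Counted without length correction, as CPM, Sp8 and Ebf1 were both above the level of 1.

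**Figure D2:**
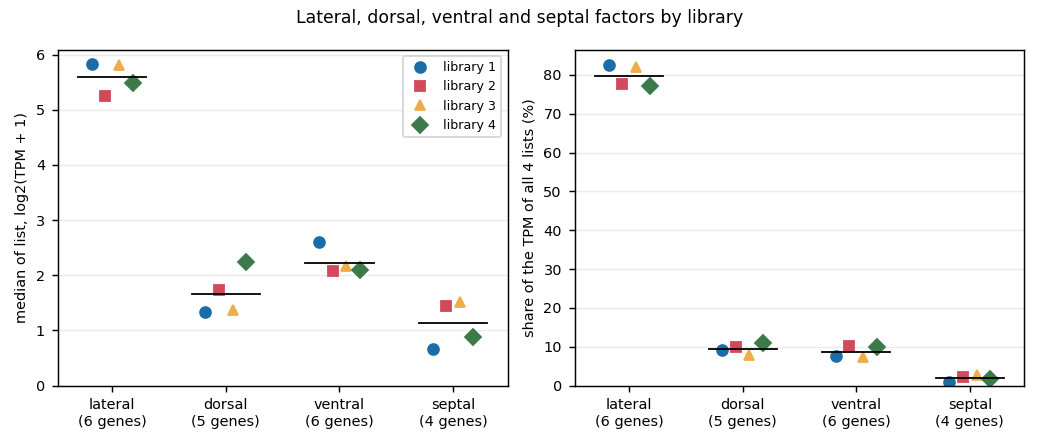
Left, median log2(TPM + 1) of the lateral, dorsal, ventral and septal lists in each library; right, share of the TPM of these 4 lists that each list holds. Points are libraries and lines their means: the lateral list holds 77.1 to 82.4% of the TPM in every library.

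The 6 lateral genes were compared with the other regional lists within each library. Their median exceeded the dorsal median by 3.92 ± 0.64 on the log2(TPM + 1) scale, the ventral median by 3.36 ± 0.22 and the septal median by 4.46 ± 0.58 (SD, n = 4), with the same direction in 4 of 4 libraries. When the 5 lineage factors were added to the lateral list, these differences became 2.57, 2.01 and 3.12. The lists were not built alike. The 5 lineage factors had a separate list. The lateral list still keeps the Dlx genes, and the part of neuroblasts in their levels was not tested. The dorsal list keeps Eomes and Tbr1, at 1.01 and 2.07 TPM, which lower its median. A dorsal list without them was not examined. Of the TPM that the 4 lists hold together, lateral genes took 79.8 ± 2.81%, dorsal genes 9.50 ± 1.35%, ventral genes 8.76 ± 1.56% and septal genes 1.95 ± 0.775%. Over coding transcripts the shares were 81.4, 9.63, 7.60 and 1.33%. The lists differ in length and the sums rest on few genes, Dlx2, Dlx1 and Gsx2 for the lateral list. The shares also depend on where a gene is placed. Dlx2 and Dlx1, the highest of the lateral list, are not confined to the lateral wall. Lhx2, a factor of the cortex and eye, is in the anterior and eye-field list and so outside these shares. Its mean of 179 TPM was above the mean dorsal sum of 58.7 TPM.

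Of the 5 dorsal genes, Pax6 and Emx2 were above 1 TPM and Emx1, Eomes and Tbr1 passed in neither direction. Pax6, a paired-box factor of pallial progenitors that also acts in dopaminergic neurons of the adult olfactory bulb, had 35.6, 34.8, 36.1 and 48.9 TPM in libraries 1 to 4. Emx2, a homeobox factor of the pallium, had 15.4, 15.3, 17.7 and 12.5 TPM. Library 4 was highest for Pax6 and lowest for Emx2. Within libraries Gsx2 exceeded Pax6, at a log2 ratio of 1.24 ± 0.38 and a coding-only ratio of 1.56 ± 0.41 (SD, n = 4). Emx2 was below Pax6, with a log2 ratio of -1.29 ± 0.40. That ratio became 0.00 when only the most abundant transcript of each gene was used, since Pax6 was spread over several coding forms, of which Pax6-202 held 29.5%, and Emx2-201 held 75.9% of Emx2.

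Emx1, the paralog of Emx2, had 0.548, 0.376, 1.28 and 3.74 TPM, library 4 being highest. Its mean of 1.49 TPM became 0.735 TPM without library 4. In that library all of its TPM was on the retained-intron form Emx1-202, at 3.74 TPM, and the coding form Emx1-201 was at 0. Over coding transcripts Emx1 was below 1 TPM, at 0.257 TPM (limma adjusted p = 0.0031). Tbr1, a T-box factor of early glutamatergic neurons, had 1.03, 2.17, 1.58 and 3.50 TPM. Of this, 85.5% was on the noncoding form Tbr1-203 of 796 bases, and its coding transcripts were below 1 TPM, at 0.242 TPM (limma adjusted p = 0.0021).

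Eomes, a T-box factor of intermediate progenitors that make glutamatergic neurons, had 1.53, 2.32, 0.202 and 0 TPM. Libraries 1 and 2 stood well above libraries 3 and 4, and the mean of 1.01 TPM became 0.577 TPM without library 2. The zero in library 4 allows up to 0.0552 TPM, the level of 3 counts on the longest transcript. Of the 6 markers of cortical glutamatergic neurons, 2 were above 1 TPM, 3 below it and 1 passed in neither direction. They summed to 331 to 389 TPM per library, beside 54.1 to 68.7 TPM for the 5 dorsal genes, and nearly all of the sum was Nrgn, at 356 ± 28.2 TPM (SD, n = 4). Neurod6 and Neurod2 were below 1 TPM, at 0.218 ± 0.221 and 0.0404 ± 0.0808 TPM. The part of such neurons in the dorsal levels was not tested.

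Of the 6 ventral genes, 4 were above 1 TPM. Nkx6-2, a homeobox factor known both from ventral stem cells and from oligodendrocytes, was the highest, with 23.5, 38.4, 34.5 and 48.0 TPM in libraries 1 to 4. The oligodendrocyte list summed to 2515, 3675, 3328 and 4357 TPM in the same libraries, so the libraries fell in the same order for both. The 8 genes of that list did not all do so: 6 were lowest in library 1 and 2 in library 3, and 7 were highest in library 4 and 1 in library 2. The part of oligodendrocyte RNA in the Nkx6-2 level was not tested.

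The difference of Nkx6-2 between library 1 and the others was mostly on 1 transcript. Nkx6-2-201, annotated as a target of nonsense-mediated decay, had 5.16, 19.3, 17.8 and 23.1 TPM. Coding transcripts of Nkx6-2 had 18.4, 19.1, 16.6 and 24.8 TPM. The decay form was lowest in library 1 and the coding form was not. The coding form was lowest in library 3, and so did not keep the library order of the oligodendrocyte sums. Nkx6-2-201 overlaps exons of the opposite-strand gene Inpp5a over 246 bases, so part of its reads may not be assignable to strand. Gsx2 exceeded Nkx6-2 by a log2 ratio of 1.37 ± 0.53 over all transcripts and 2.18 ± 0.47 over coding ones.

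Nkx2-2, a homeobox factor of the ventral neural tube and the oligodendrocyte lineage, had 7.12, 8.87, 4.32 and 5.52 TPM, which did not follow the oligodendrocyte sums. Vax1, a homeobox factor of the ventral anterior forebrain, had 7.87, 4.75, 8.98 and 2.95 TPM, library 4 being lowest. Lhx6, a LIM homeobox factor of interneurons from the medial ganglionic eminence, had 2.69, 2.07, 2.75 and 3.62 TPM, library 4 being highest, and on its most abundant transcript alone it passed in neither direction (limma adjusted p = 0.095).

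Nkx2-1, the homeobox factor that specifies the medial ganglionic eminence, had 3.54, 1.98, 1.84 and 0 TPM. The zero in library 4 allows up to 0.0708 TPM on the longest transcript, Nkx2-1-201. It allows more on the shorter Nkx2-1-202, which held 96.3% of the gene's TPM. The other libraries had 43 to 116 estimated counts. Nkx2-1 passed in neither direction over the 4 libraries (limma adjusted p = 0.45) and was above 1 TPM without library 4 (limma adjusted p = 0.041). Lhx8, a LIM homeobox factor of cholinergic neurons, had 0, 0.939, 0.128 and 1.64 TPM, at most 37 estimated counts. Its mean of 0.677 TPM became 0.356 TPM without library 4, and it was then below 1 TPM (limma adjusted p = 0.034).

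The septal list was split. Zic5 and Zic4 were above 1 TPM, and Zic1 and Zic2 were below it; all are zinc finger factors of the medial forebrain. Zic5 had 4.44, 7.07, 13.7 and 8.58 TPM in libraries 1 to 4. Zic4 had 1.09, 5.47, 5.82 and 2.06 TPM. Library 1 was lowest for both and library 3 highest. Zic1 had 0.193, 0.0847, 0.206 and 0.106 TPM. Zic2 had 0, 0.151, 0.191 and 0.110 TPM, or at most 5 estimated counts per library. Neither Zic1 nor Zic2 exceeded 0.206 TPM in any library.

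The 4 Zic genes form a pair of divergent loci, each with 1 gene on each side of the call. Zic1 (chr9:91358058-91365810, minus strand) and Zic4 (chr9:91362413-91389348, plus strand) overlap on opposite strands, their starts 3397 bases apart. Zic2 (chr14:122475435-122479852, plus strand) and Zic5 (chr14:122456795-122465677, minus strand) have starts 9758 bases apart. Zic1 was below Zic4 by a log2 ratio of -1.84 ± 0.85, and Zic2 below Zic5 by -3.00 ± 0.50 (SD, n = 4), in 4 of 4 libraries each. The call of Zic4 rested on single libraries: its limma adjusted p was 0.035 over all 4 and 0.12 without library 2 or without library 3. Over coding transcripts Zic4 passed in neither direction, at 1.93 TPM (limma adjusted p = 0.26), and Zic5 remained above 1 TPM, at 4.36 TPM (limma adjusted p = 0.0011). The noncoding form Zic5-202 of 705 bases held 48.3% of the TPM of Zic5.

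Anterior and eye-field factors were set at opposite ends. Lhx2, a LIM homeobox factor of the cortex and eye, had 191, 161, 211 and 151 TPM in libraries 1 to 4. Six3, a homeobox factor of the anterior forebrain, had 33.4, 33.9, 36.9 and 40.6 TPM. Rax, the eye-field factor, had 2 estimated counts in library 2 and none in the others, where a zero allows up to 0.181 TPM. Barhl2, a factor of retinal and diencephalic neurons, had 1 estimated count in library 4 and none in the others, where a zero allows up to 0.127 TPM.

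The Otx genes, homeobox factors of the anterior brain, varied more between libraries than Six3. Otx1 had 11.7, 16.96, 20.8 and 26.6 TPM and Otx2 had 3.54, 3.05, 9.99 and 8.34 TPM. Library 1 was lowest for Otx1, and libraries 1 and 2 stood below libraries 3 and 4 for Otx2. Otx2 is also known from the choroid plexus, whose markers summed to 8.35, 23.5, 12.2 and 20.4 TPM in libraries 1 to 4. That order was not the order of Otx2. Nearly all of the sum was Folr1, at 15.2 ± 7.03 TPM, and Ttr, Kl and Kcne2 were each below 1 TPM, with Ttr at 0.488 ± 0.454 TPM (SD, n = 4). The part of choroid plexus RNA in the Otx2 level was not tested. Otx1 exceeded Otx2 by a log2 ratio of 1.55 ± 0.48, higher in 4 of 4 libraries.

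**Figure D3:**
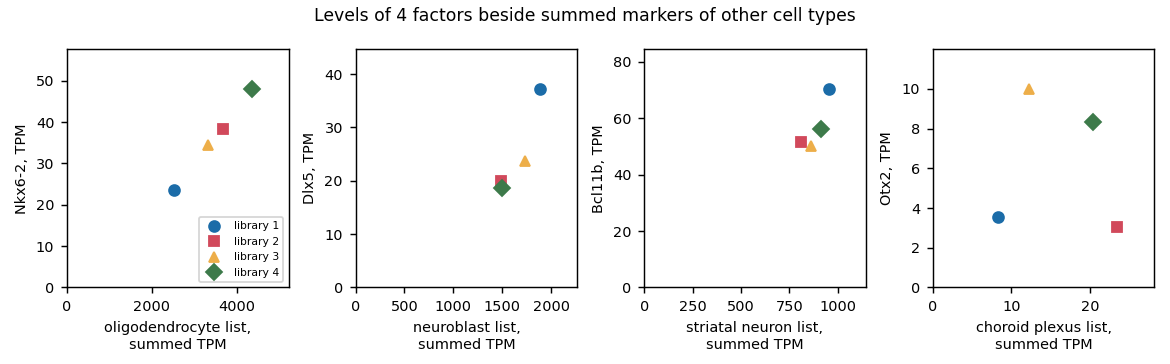
TPM of Nkx6-2, Dlx5, Bcl11b and Otx2 on the vertical axes beside the summed TPM of a marker list on the horizontal axes, 1 point per library. The libraries keep the same order for Nkx6-2 over all transcripts and the oligodendrocyte list, an order that coding Nkx6-2 transcripts do not keep. Library 1 is highest for Dlx5 and the neuroblast list, and Otx2 and the choroid plexus list do not keep the same order. With 4 libraries no correlation was computed.

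Nuclear factor I genes, which act in glial and stem cell programs, were the highest family, and all 4 were above 1 TPM with a median of 193 TPM. Nfix had 229, 244, 306 and 417 TPM in libraries 1 to 4. Nfia had 279, 207, 258 and 238 TPM. Nfib had 141, 135, 147 and 136 TPM. Nfix was highest in library 4, and Nfib was nearly level, at 1.09-fold between its extremes. Nfic had 63.8 to 90.7 TPM. Nfia exceeded Nfib by a log2 ratio of 0.80 ± 0.15 and Nfix exceeded Nfic by 1.83 ± 0.27. Short coding forms held most of the Nfia TPM: Nfia-207 of 821 bases held 43.9% and Nfia-208 of 851 bases held 37.7%. The form Nfia-202 of 9526 bases held 11.1%. TPM divides counts by length, so these are not shares of reads.

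All 6 POU factors, which pair a POU domain with a homeodomain, were above 1 TPM. Pou2f1, the broadly expressed Oct1, had 61.1, 56.3, 87.5 and 89.3 TPM in libraries 1 to 4, libraries 3 and 4 being higher. The 4 POU class 3 genes, known from neural progenitors and neurons, averaged 28.5 ± 4.32 TPM for Pou3f3, 15.5 ± 0.890 for Pou3f4, 13.4 ± 1.74 for Pou3f1 and 11.7 ± 1.02 for Pou3f2 (SD, n = 4). Pou3f4 and Pou3f2 varied 1.15-fold and 1.21-fold between libraries. Pou3f2 was below Pou3f4 by a log2 ratio of -0.38 ± 0.13 in TPM and above it, at 0.55, in CPM without length correction. Pou6f1 averaged 32.5 ± 8.83 TPM, of which 49.9% was on coding transcripts.

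The Pbx genes, homeobox partners of other homeodomain factors, were all above 1 TPM. Pbx4 had 26.8, 47.6, 25.2 and 17.2 TPM, library 2 being highest. Its coding transcripts averaged 6.73 TPM, 23.1% of its mean, and the forms marked for nonsense-mediated decay Pbx4-205 and Pbx4-209 held 20.5 and 16.6%. Pbx2 had 10.9, 8.96, 3.80 and 10.01 TPM and Pbx3 had 10.3, 12.3, 20.9 and 20.8 TPM. Pbx2 was higher than Pbx3 in library 1 and lower in the other 3, and their log2 ratio of -0.88 ± 0.97 was smaller than its SD.

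Among the zinc finger factors, 5 of 6 were above 1 TPM. Zeb1 and Zeb2, factors known from epithelial to mesenchymal transition and from neural and glial differentiation, had 80.6, 72.7, 71.0 and 127 TPM and 70.3, 82.7, 74.0 and 102 TPM in libraries 1 to 4, both highest in library 4. Zeb2 did not stand apart from Zeb1 over all transcripts, with a log2 ratio of -0.07 ± 0.23 that was positive in 2 libraries and negative in 2. Over coding transcripts Zeb2 was higher in 4 of 4 libraries, by 0.97 ± 0.21, since only 33.9% of the Zeb1 mean was coding. Bcl11a was below Bcl11b in all 4 libraries, at log2 ratios of -1.75, -1.61, -1.61 and -1.61. Bcl11a is known from cortical and olfactory bulb neurons and averaged 17.5 ± 1.99 TPM.

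Satb1, a chromatin organizer, averaged 14.3 ± 2.35 TPM. Tshz1, a factor of olfactory bulb neurons, had 5.80, 7.70, 10.2 and 19.5 TPM, library 4 being highest. Tshz2, its paralog, had 0.584, 4.62, 1.07 and 2.20 TPM and passed in neither direction. Its mean of 2.12 TPM became 1.28 TPM without library 2. Of the 5083 exonic bases of Tshz2-201, 5046 lie opposite exons of Gm26883, which is not among the transcripts of the files, so its reads cannot be told apart from reads of that gene.

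The last 3 members are stem and glial factors and all were above 1 TPM. Klf15, a Krüppel-like factor of astroglial and metabolic programs, had 88.5, 84.5, 117 and 109 TPM in libraries 1 to 4. Hopx, an atypical homeodomain protein of radial glia and quiescent stem cells, had 47.9, 34.3, 30.7 and 50.01 TPM, libraries 1 and 4 being higher. Prdm16, a zinc finger regulator of radial glia and adult stem cells, had 20.4, 25.1, 36.3 and 15.7 TPM. On coding transcripts Prdm16 averaged 17.1 TPM, and Prdm16-207, a coding form of 757 bases, held 40.9% of its TPM. Exons of Hopx-202 overlap the opposite-strand Hopxos over 284 bases.

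**Figure D4:**
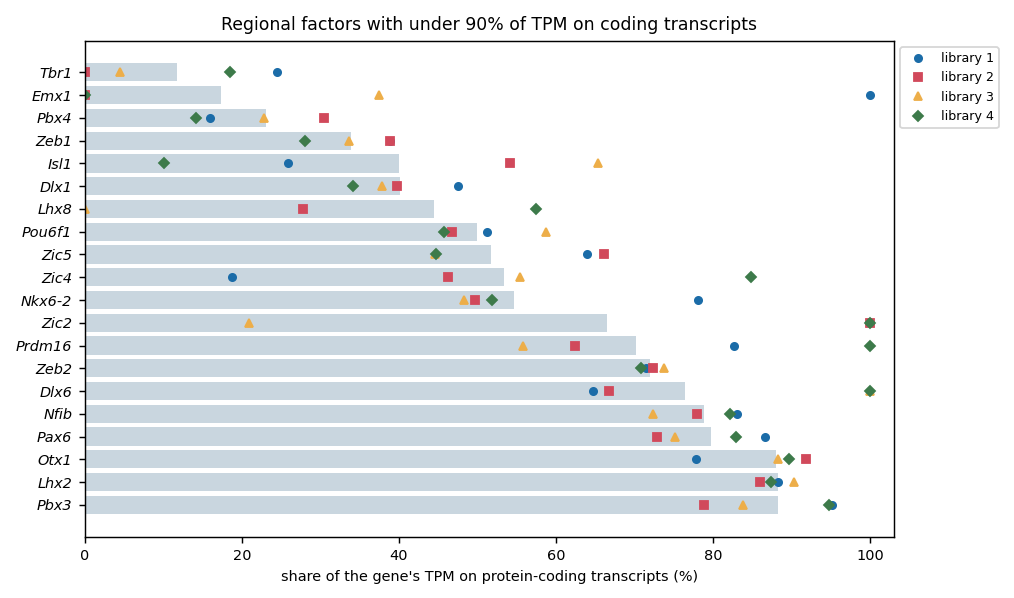
Share of each gene's TPM that lies on protein-coding transcripts, for the 20 members under 90%; bars give the share of the mean and points the 4 libraries, where a library with no TPM has no point. Tbr1, Emx1 and Pbx4 are lowest, at 11.7, 17.3 and 23.1% of the mean.

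Across the 54 members, 318 transcripts were in the files. For 34 members at least 90% of the mean TPM was on coding transcripts, for 12 it was 50 to 90% and for 8 under 50%. The 8 were Tbr1, Emx1, Pbx4, Zeb1, Isl1, Dlx1, Lhx8 and Pou6f1. Summing only coding transcripts moved 5 calls: Emx1, Tbr1 and Lhx8 became below 1 TPM, and Isl1 and Zic4 passed in neither direction. Exons of 23 members overlap an exon of a gene on the other strand, and for 16 of them a partner is not among the transcripts of the files. The counts by coding share and of overlap describe the members only. They were not set beside the same shares over all genes, so neither can be read as particular to these factors.

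**Figure D5:**
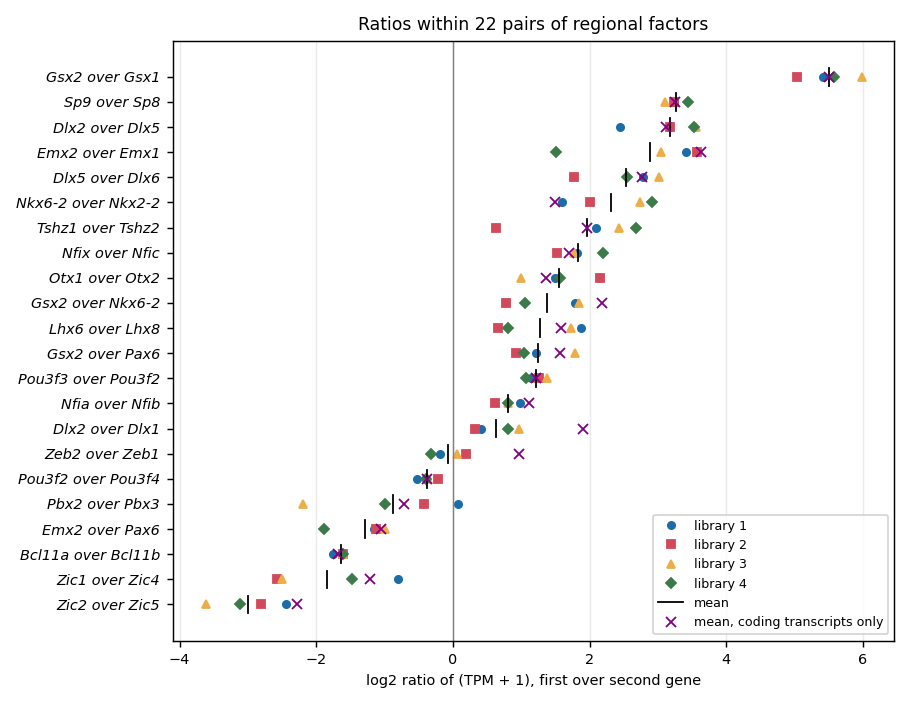
Log2 ratio of (TPM + 1), first over second gene, for 22 pairs of members; points are libraries, black lines the mean over all transcripts and crosses the mean over coding transcripts. In 20 pairs all 4 points lie on the same side of 0, the exceptions being Pbx2 over Pbx3 and Zeb2 over Zeb1.

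Of the 22 pairs of paralogs and regional partners, 20 had the same sign in all 4 libraries. The ratio was widest for Gsx2 over Gsx1, at 45.2-fold, followed by Sp9 over Sp8 at 9.55-fold. Emx2 over Emx1 was 7.37-fold over all transcripts and 12.4-fold over coding ones. Tshz1 over Tshz2 averaged 3.89-fold and ranged from 0.63 to 2.68 on the log2 scale, library 2 being lowest. Lhx6 over Lhx8 averaged 2.41-fold and Nkx6-2 over Nkx2-2 averaged 4.96-fold over all transcripts and 2.83-fold over coding ones.

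Members of at least 10 TPM varied between libraries about as much as other genes of that level, with a median SD of log2(TPM + 1) of 0.23 beside 0.247 over 9433 genes. A further 27 forebrain factors, outside the 54, gave 18 above 1 TPM, 4 below, 3 in neither direction and 2 at 0 in every library, with a median of 8.58 TPM. Of all genes tested, which leave out genes without a count, 62.8% were above 1 TPM and 23.2% below. Those below included Neurog2, Neurog1 and Dmrta2, at 0.384, 0.266 and 0.171 TPM. Those that passed in neither direction included Tfap2c and Dmrta1, and Dmrt3 and Hmx3 were at 0 in every library.

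Of 23 factors of the midbrain, hindbrain and spinal cord, 14 were below 1 TPM, 6 were at 0 in every library and 2, Irx3 and Gbx2, passed in neither direction. Irx5, an Iroquois homeobox factor, was the 1 gene above 1 TPM, with 1.03, 3.36, 4.25 and 6.03 TPM in libraries 1 to 4 (limma adjusted p = 0.023). Of all genes tested, which leave out genes without a count, 23.2% were below 1 TPM and 62.8% above it. The list's median, with its genes at 0 included, was 0.0148 TPM. It stood beside 15.4 TPM over the 54 members and 8.34 TPM over all genes tested.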

How the data were processed

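RNA was profiled in 4 libraries of 1 group, labelled as activated neural stem cells. Per the labels' protocols, RNA was extracted with a PicoPure kit, SMART-Seq v4 gave cDNA and a HiSeq gave paired-end reads. Per the submitters' processing notes, kallisto, sleuth and mm10 were used; for versions and transcript release, the sources used here give none. The deposited estimated counts divide reads shared by transcripts by estimate, and the deposited TPM values divide those counts by effective length and scale them to a fixed total. Low-input cDNA is amplified, so limits cover counting error only.

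Transcripts were joined to genes with GENCODE M21 (GRCm38): 98294 of 99567 matched and gave 32564 genes, and coordinates count from 1. TPM was summed per gene over all and over coding transcripts, and log2(TPM + 1) was tested against 1 TPM over 19914 genes with a count (limma 3.58.1 in R 4.3.3, two-sided, with a trend of variance on level, calls at a Benjamini-Hochberg adjusted p under 0.05), after the script was tested on simulated counts. Lists are described by counts and medians, and ratios of TPM + 1 within pairs were taken per library. The level that a zero allows is that of 3 counts on the gene's longest transcript, and it is higher on a shorter transcript. Library numbers follow the order of deposition and pair nothing. The members, lists and pairs were chosen with earlier results of these data known. All members are named; of other lists, the highest 2 and those in counts of 5 or fewer, with marker genes added after their values were seen; some genes this rule selects are not reported here. Alternatives were another pseudocount, count minimum, level, scaling, transcript sum and list summary, edgeR 4.0.16 on rounded counts, DESeq2 1.42.0 size factors, and each library left out.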

Additional observations from a re-analysis of the deposited data

Results flagged for a closer look

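For each of the 54 members, the 22 pairs and the 3 differences between regional medians, the 4 libraries were examined for 1 value far from the others, measured as its gap to the nearest library divided by the whole range. Of 79 sets of 4 values, 6 stood out, and chance flags about 1 in 20. Pax6 was set apart by library 4, at 48.9 TPM beside 34.8 to 36.1 TPM (gap over range 0.889). Sp9 was set apart by library 1, at 23.4 TPM beside 16.0 to 16.9 TPM (0.864). Ebf1 was set apart by library 2, at 0.563 TPM beside 1.25 to 1.38 TPM (0.866). Rax and Barhl2 (a gap over range of 1 each) had estimated counts in 1 library only, 2 counts for Rax and 1 for Barhl2. The ratio of Bcl11a over Bcl11b (0.967) was -1.75 in library 1 and -1.61 in each of the other 3.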

How the results depend on the processing

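The count of members above 1 TPM was 40 to 42 with each library left out, and 3 to 4 members were below. Above the level there were 37 members on the most abundant transcript, 44 in CPM and 32 against a level of 5 TPM, beside 59.1, 64.1 and 49.7% of all genes tested. Below 1 TPM there was 1 member with a minimum of 5 estimated counts, beside 5.98% of all genes left, and there were 7 on coding transcripts. Below 5 TPM there were 14 members, beside 37.8% of all genes. Leaving out each library gave 39 to 40 coding members above 1 TPM, a lateral minus dorsal median of 3.73 to 4.15, a lateral minus ventral median of 3.26 to 3.42 and a lateral minus septal median of 4.23 to 4.69. With list means in place of medians these 3 differences were 2.32, 2.45 and 3.51, and with the lineage factors added 2.57, 2.01 and 3.12. A pseudocount of 0.1 gave 3.65 for lateral minus ventral and 5.72 for lateral minus septal; lateral minus ventral was 2.97 on the most abundant transcript and 3.07 on coding transcripts. Against 5 TPM the differences of members near the threshold turned negative: Emx1 -1.45, Tbr1 -1.03, Dlx6 -0.47, Gsx1 -1.54, Isl1 -0.28, Ebf1 -1.51, Nkx2-1 -1.27, Lhx6 -0.68, Zic4 -0.55 and Tshz2 -1.11, as a higher level requires. Emx1 was at -0.70 and Tbr1 at -0.71 on coding transcripts, Zic4 at -0.20 on its most abundant transcript and Sp8 at 0.95 in CPM. Over all transcripts Tbr1 moved the other way when TPM was rescaled over nuclear protein-coding genes. It was then above 1 TPM, at 0.84 (limma adjusted p = 0.031). Of pairs, Pou3f2 over Pou3f4 became 0.55 in CPM, in which the longer gene gains, and Emx2 over Pax6 0.00 on the most abundant transcript. In edgeR's test Zic2 was no longer below (adjusted p = 0.051) and Tshz2 was above 1 TPM (adjusted p = 0.024). Where no cause is given, the cause was not tested. No paired analysis was possible because the labels give 1 group. Depth limits Rax, Barhl2, Zic2 and Lhx8, which had 0 counts in at least 1 library and at most 37 in any.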
